A study of Homo sapiens with 24 samples.

Results

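The hexosamine pathway makes UDP-GlcNAc, the sugar donor for the O-GlcNAc mark on nuclear and cytoplasmic proteins, for N-linked glycans, for GPI anchors and for hyaluronan and heparan sulfate. Glutamine:fructose-6-phosphate amidotransferase, encoded by GFPT1 and GFPT2, commits fructose 6-phosphate to the pathway and is inhibited by its end product. GNPNAT1 then acetylates glucosamine 6-phosphate, PGM3 moves the phosphate to carbon 1, and UAP1 joins the sugar to UDP, whereas NAGK phosphorylates free N-acetylglucosamine and so returns salvaged sugar to the pathway. The members were chosen by name: all bins whose gene group was 1 of these 6 genes, 89 bins in all, of 13236 genes and 164219 bins in the count tables. Counts of the 87 exon bins were added up gene by gene to give gene levels. The other 2 bins are detained introns by the authors' class names (introns kept in polyadenylated RNA), of 4769 in the tables, and were analysed apart.

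HEK293T, a widely used line of embryonic kidney origin, was treated for 2 h or 6 h, each time and drug beside its own DMSO libraries. OSMI-2 (10 µM) blocks OGT, the enzyme that adds O-GlcNAc. Thiamet-G, labelled TMG (5 µM), blocks OGA, the enzyme that removes it, named MGEA5 in the tables. All cultures had their medium renewed 3 h before treatment, and RNA was taken with Trizol or a column kit, the labels not saying which for which sample. Each of the 8 groups had 3 libraries of polyadenylated RNA, except OSMI-2 at 6 h with 2, the third being not analysed here. The labels do not say whether libraries of a group came from separate cultures, so p-values measure the spread between these libraries, which may be technical. Totals ran from 39465746 to 100161560 bin counts. All 10 of the HEK293T marker genes looked for (among them PAX2, EYA1, VIM and NEFL) had counts in the tables. In DMSO libraries NEFM was at 0.372 to 1.99 CPM (counts-per-million of the library total), EYA1 at 0.517 to 2.57, PAX2 at 1.21 to 4.2 and VIM at 355 to 787. Of 5 genes of other cell types, 1 (COL1A1) was in the tables, at 6.28 to 16.6 CPM in DMSO libraries, above NEFM, EYA1 and PAX2. CPM of the enzyme genes use totals adjusted by TMM within each comparison, so they are compared within a drug and time only, and differences between times come from joint fits.

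The libraries differed in how strongly the level of a gene depended on the GC content of its transcript. The slope, in log2 per 10 percentage points of GC, was 0.833 to 1.148 in 10 of the 11 libraries of the OSMI-2 experiment and 0.424 in the other one, DMSO 6 h library a. In the 12 libraries of the TMG experiment it was -0.54 to -0.235. The members span these slopes: transcript GC was 38.3% for GFPT1, 39.2% for PGM3, 39.8% for GNPNAT1, 44.8% for UAP1, 50.8% for NAGK and 52.0% for GFPT2. Levels were therefore not compared between the 2 experiments, and results that rest on DMSO 6 h library a are given with and without it.

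**Figure D1:**
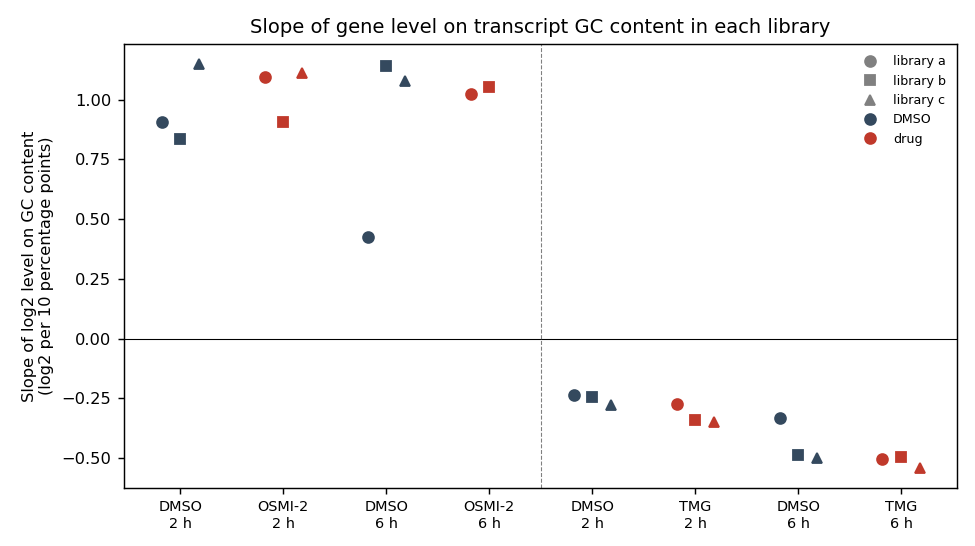
Slope of log2 gene level on transcript GC content (log2 per 10 percentage points, y axis) in each of the 23 libraries, by group (x axis), with the library (a, b or c) shown by marker shape and DMSO or drug by colour. The OSMI-2 experiment lies between 0.833 and 1.148 apart from DMSO 6 h library a at 0.424, and every library of the TMG experiment lies below 0.

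Sequences at the starts of these genes are shown because levels of 4 members varied together across libraries. RefSeq gives 10 promoter windows (250 bases before to 50 after a start, GRCh38.p14) for the 6 members. They were searched, after the sequences had been viewed, for CCACGT on either strand (ACGTGG when read on the opposite one), the core that the unfolded-protein-response factor XBP1 is known to bind. In 4 of the 6 genes at least 1 window held the letters, against 11.6% of 27305 genes and 9.72% of 35116 windows in the table, and each match is printed with 30 bases around it, capitals marking the motif.
GFPT1 (chr2:69387390-69387419, minus strand): cacgagccactgCCACGTcgccgccgccag
GNPNAT1 (chr14:52791563-52791592, minus strand): gcgttggcgctgCCACGTctgggccgcggt
PGM3 (chr6:83193256-83193285, minus strand): agccacgcagggCCACGTctgcggttctga
UAP1 (chr1:162561860-162561889, plus strand): ccacgcgctcagACGTGGacacgcgtcgca
Counted from the annotated start, the matches begin at -180 in GFPT1, at -8 in PGM3, at 28 in GNPNAT1 and at 3 in UAP1, the last in only 1 of its 3 annotated starts and on the opposite strand. Of the 2 PGM3 starts, 1 held the match. The windows of GFPT2 (1 start) and NAGK (2 starts) do not hold these letters. A match is a description of the sequence and does not show that a factor binds there. The search came after the windows had been viewed, so the shares over all genes cannot test whether members hold the letters more often. Any part of the motif in levels that varied together was not tested.

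Across the 6 genes, levels per kilobase of exon (CPM per kb) differed by more than an order of magnitude in the OSMI-2 experiment. NAGK was highest there, at 21.8 to 33.3 CPM per kb over 11 libraries (2 h and 6 h scaled apart), and its range did not meet that of any other member. UAP1 followed at 5.35 to 12.1, overlapping GFPT2 at 4.97 to 11.1, and GNPNAT1 at 2.70 to 6.96 overlapped both. PGM3 (1.57 to 4.07) and GFPT1 (1.25 to 2.95) were lowest and overlapped each other. The TMG experiment gave another order: UAP1 was highest at 30.5 to 38.1 CPM per kb over 12 libraries and GNPNAT1 next at 20.2 to 26.8, apart from each other and from the rest. PGM3 (12.5 to 16.5) overlapped NAGK (12.2 to 16.5), NAGK overlapped GFPT2 (6.68 to 12.5), and GFPT2 overlapped GFPT1 (7.42 to 8.91). Every member was counted well above the filter for low values, with at least 360 counts in each library (PGM3, OSMI-2 experiment), so all 6 were tested in every comparison. The order differed between experiments that also differed in the sign of their GC slope, and its part in the order was not tested. The order also depends on annotated length. The last exon bin of GFPT1 is 6456 of its 8724 exon bases. In the OSMI-2 experiment its counts per base had a median of 16.6% of those of the gene's other exon bins. For the last bins of PGM3, GNPNAT1, NAGK and UAP1 it was 27.0%, 39.1%, 50.6% and 79.2%. Last bins with few counts per base lower the level per kb, and the order without them was not worked out. Wide bins that are not last could be low too. In NAGK those of 403 and 411 bases were at 49.2% and 19.2%, while a 579-base bin of GFPT2 was at 82.8%. A read can be counted in several bins, and the part of bin width in the order was not tested.

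**Figure D2:**
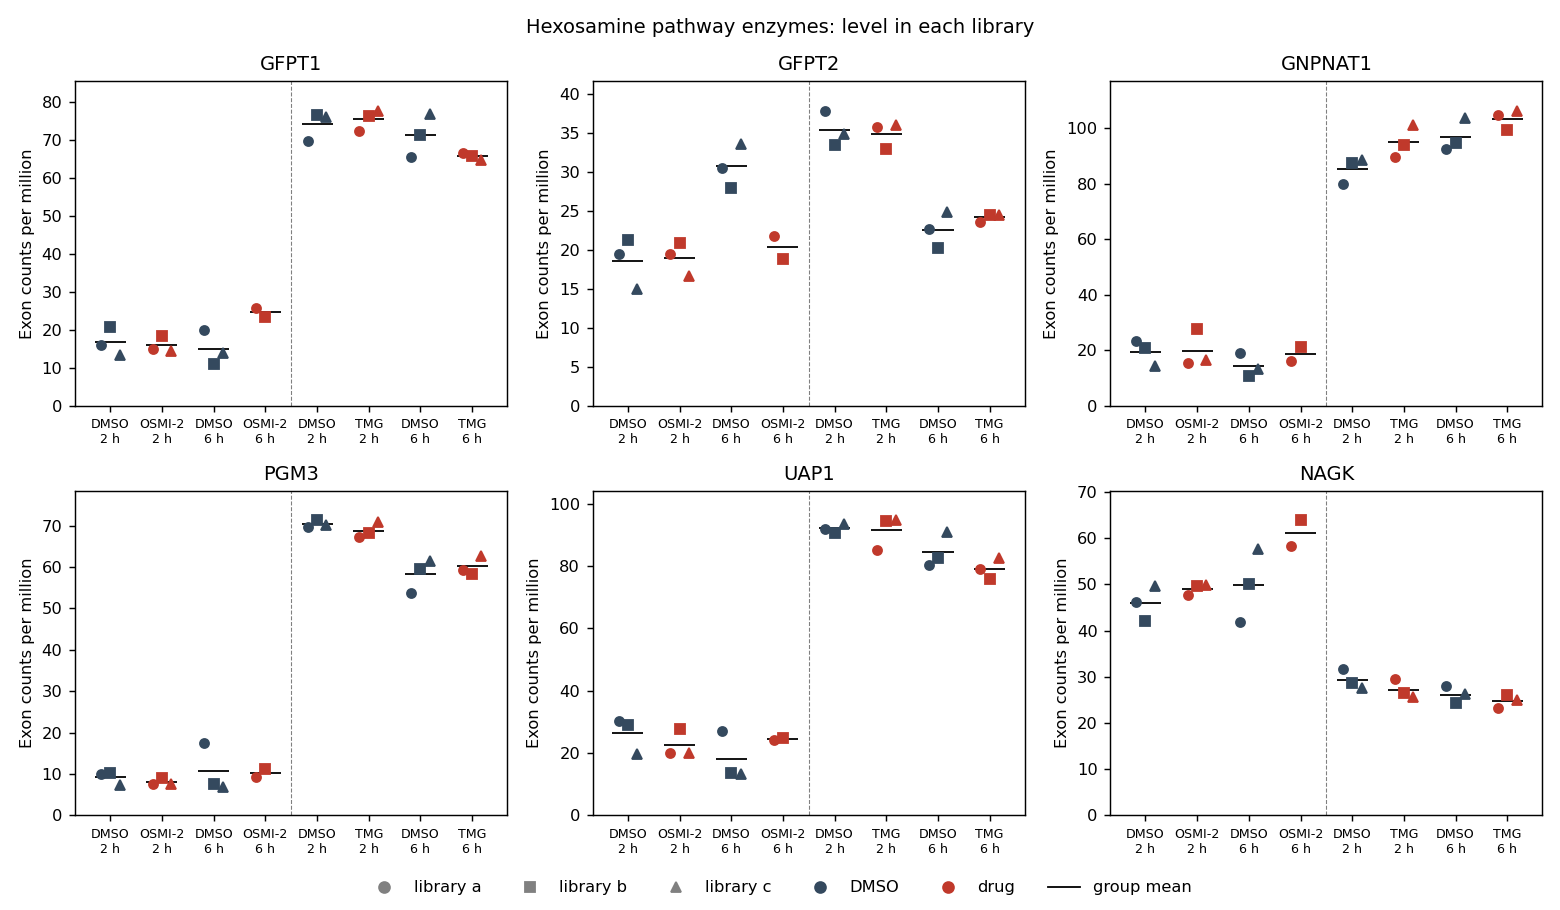
Exon CPM (y axis, linear from 0) of each enzyme gene in each of the 23 libraries, by group (x axis), with the OSMI-2 experiment left and the TMG experiment right of the dashed line; black bars are group means, and each drug and time with its DMSO group is scaled apart. For GFPT1 the 2 OSMI-2 6 h libraries (23.4 and 25.7) lie above all 3 DMSO libraries of that time (10.9 to 19.9), and for GFPT2 they lie below them.

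After 6 h of OSMI-2 none of the 6 genes passed the test over all genes when all 5 libraries were used, but the amidotransferase genes leaned in opposite ways and 5 of the 6 genes passed once DMSO 6 h library a was left out. Called genes made up 4.94% of 12484 tested with all libraries and 42.4% of 12435 without that library. The latter fit held 4 libraries, 2 of them treated. Without DMSO library b or c instead, no member passed (lowest edgeR adjusted p 0.341 and 0.434), where 2.59% and 1.04% of genes did. All adjusted p-values of genes here are from edgeR's quasi-likelihood test with Benjamini-Hochberg adjustment over all genes tested, with 0.05 as the threshold. Over all genes the median log2 fold change was 0.15 with all libraries and 0.26 without DMSO library a, and over the 6 members it was 0.34 with all libraries. The 10 HEK293T markers had a median of 0.75 in the same comparison, and 1 of them passed (NEFM, 1.53, edgeR adjusted p = 0.0107). All 10 had both OSMI-2 libraries above every DMSO library, which was so for 32.2% of all genes tested. COL1A1, the listed gene of another cell type, was at 0.81 (edgeR adjusted p = 0.128). The part of these shifts in the members' values was not tested.

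GFPT1, the broadly expressed amidotransferase, was at 25.7 and 23.4 CPM in the OSMI-2 6 h libraries a and b, and at 19.9, 10.9 and 13.8 CPM in DMSO libraries a, b and c. Both treated libraries were above every DMSO library. The log2 fold change was 0.73 (SE 0.33, n = 2 against 3, edgeR adjusted p = 0.172). Without DMSO library a it was 1.04 (SE 0.16, edgeR adjusted p = 0.0037). With the GC trend of each library removed it was 0.64 (edgeR adjusted p = 0.0336), where 21.2% of genes were called. At 2 h, OSMI-2 libraries had 14.5 to 18.5 CPM and DMSO libraries 13.5 to 20.8, which overlapped.

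GFPT2, the second amidotransferase, was at 21.8 and 18.9 CPM in OSMI-2 6 h libraries a and b against 30.5, 28.0 and 33.6 CPM in DMSO libraries a, b and c. Both treated libraries were below every DMSO library. The log2 fold change was -0.60 (SE 0.33, n = 2 against 3, edgeR adjusted p = 0.263), and -0.55 (SE 0.15, edgeR adjusted p = 0.0256) without DMSO library a. With the GC trend removed it was -0.71 (edgeR adjusted p = 0.0238). At 2 h, OSMI-2 libraries had 16.6 to 20.9 CPM and DMSO libraries 15 to 21.2, which overlapped. GFPT1 (upward) and GFPT2 (downward) were the 2 members that passed both without the deviating library and after removal of the GC trend. These settings alone called 42.4% and 21.2% of all genes, and the share passing both was not worked out. Removal of the GC trend was chosen after the data had been seen.

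UAP1, which makes UDP-GlcNAc itself, was at 24.1 and 24.7 CPM in OSMI-2 6 h libraries a and b. The DMSO libraries were at 27.1 CPM in a, 13.6 in b and 13.3 in c, so that only library a was above the treated ones. The log2 fold change was 0.44 (SE 0.34, edgeR adjusted p = 0.445) with all 5 libraries and 0.91 (SE 0.12, edgeR adjusted p = 0.00289) without DMSO library a. GNPNAT1, the acetyltransferase, was at 16.1 and 21.2 CPM with OSMI-2 against 18.9, 10.7 and 13.4 CPM in DMSO libraries a, b and c. DMSO library a lay between the treated libraries, and b and c lay below both. The log2 fold change of GNPNAT1 was 0.38 (SE 0.34, edgeR adjusted p = 0.523) with all libraries and 0.67 (SE 0.17, edgeR adjusted p = 0.0184) without library a.

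PGM3, the mutase, depended most on that library. It was at 9.38 and 11.1 CPM with OSMI-2 and at 17.6, 7.59 and 6.80 CPM in DMSO libraries a, b and c. The log2 fold change was -0.06 (SE 0.36, edgeR adjusted p = 0.945) with all libraries and 0.55 (SE 0.15, edgeR adjusted p = 0.0213) without library a, so its sign changed. After removal of the GC trend PGM3 was at -0.07, GNPNAT1 at 0.28 and UAP1 at 0.46, and none of these 3 passed (edgeR adjusted p from 0.127 to 0.8). These values are from all 5 libraries, where they were -0.06, 0.38 and 0.44 before the removal. The median of all genes was 0.002 after the removal, 0.15 before it and 0.26 without library a. Values of the 3 fits are therefore not on the same scale. Library a also had the low GC slope, and the part of that slope in the shifts was not tested.

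NAGK, the salvage kinase, was at 58.2 and 63.9 CPM with OSMI-2 at 6 h against 41.9, 50.2 and 57.6 CPM in DMSO libraries a, b and c. The treated libraries were above every DMSO library by a small margin over library c. It had a log2 fold change of 0.29 (SE 0.30, edgeR adjusted p = 0.579), and 0.23 (SE 0.12, edgeR adjusted p = 0.167) without library a. In 3 of the 6 members the OSMI-2 and DMSO libraries did not overlap at 6 h, which was so for 47.2% of all genes tested.

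Other scalings moved these values together. The median of all genes was 0.15 under the scaling used, 0.30 under median-of-ratios size factors and -0.09 under TMM over genes only, with 321 genes called higher and 296 lower, 709 and 234, and 33 and 481. Under these 3 scalings GFPT1 was at 0.73, 0.90 and 0.48, GFPT2 at -0.60, -0.45 and -0.83, and NAGK at 0.29, 0.43 and 0.06. GFPT1 was above and GFPT2 below the median of all genes in each, and NAGK was close to it. PGM3 changed sign, at -0.06, 0.14 and -0.31. In a fit of all 23 libraries together, 5 of the 6 members passed, all but PGM3, where 47.0% of genes did, and by DESeq2 GFPT1 alone passed (log2 fold change 0.90, adjusted p = 0.0394), where 8.95% of genes did.

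**Figure D3:**
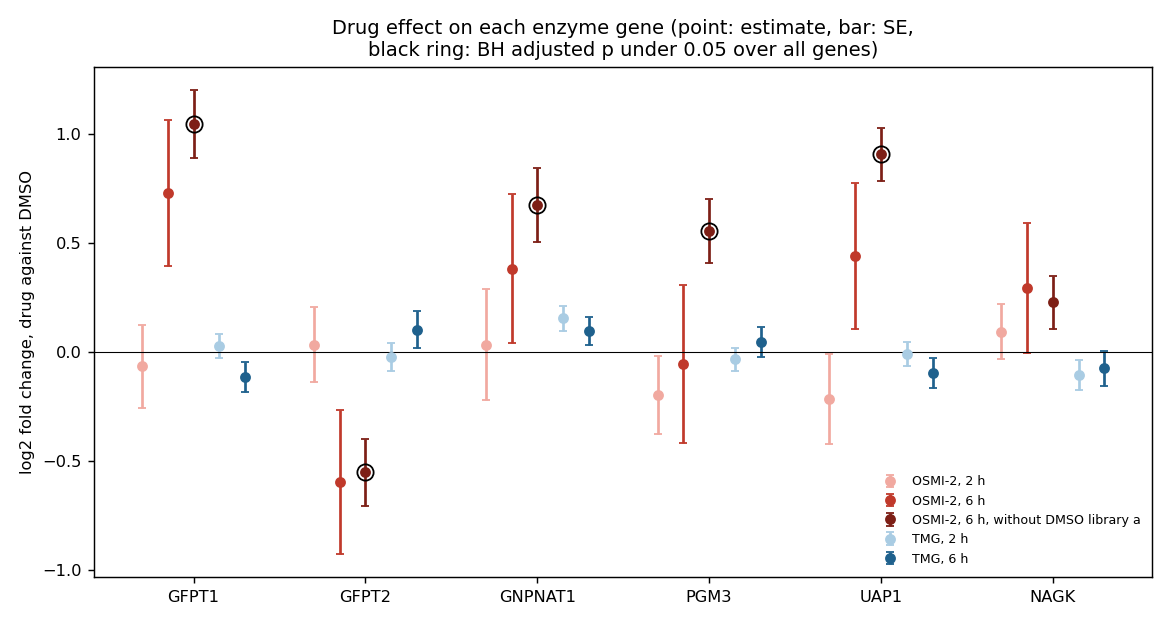
Log2 fold change of drug against DMSO (y axis) with its SE as the bar for each enzyme gene (x axis) in the 4 comparisons, and for OSMI-2 at 6 h also without DMSO library a; black rings mark values past the threshold over all genes. The 5 ringed points all belong to the fit without that library: GFPT1 at 1.04, UAP1 at 0.91, GNPNAT1 at 0.67 and PGM3 at 0.55 above 0 and GFPT2 at -0.55 below it.

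After 2 h of OSMI-2 no member and no gene passed (0% of 12343 genes, with 160 genes at an unadjusted p under 0.05, and 1 gene by DESeq2). Log2 fold changes of the members were between -0.22 (UAP1, SE 0.21) and 0.09 (NAGK, SE 0.13), all with an edgeR adjusted p of 1, and the OSMI-2 and DMSO libraries overlapped for all 6, where 4.56% of all genes did not overlap. The SE was 0.13 to 0.25 over the 6 genes at this time.

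TMG left the members within narrow bounds. At 2 h, where 7.91% of 12361 genes passed, no member did. GNPNAT1 came closest, with 89.7, 93.9 and 101.1 CPM in TMG libraries against 80.0, 87.4 and 88.6 CPM in DMSO libraries. Its 3 TMG libraries were above all DMSO libraries, at a log2 fold change of 0.15 (SE 0.06, n = 3 against 3, edgeR adjusted p = 0.09), 1 of 6 members without overlap where 26.9% of all genes had none. The other 5 members were between -0.11 (NAGK, SE 0.07) and 0.03 (GFPT1, SE 0.05), and their libraries overlapped.

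At 6 h of TMG, where 6.03% of 12103 genes passed, no member did either, and all 6 overlapped with DMSO, where 27.7% of all genes did not overlap. The values were between -0.11 (GFPT1, SE 0.07) and 0.10 (GFPT2, SE 0.08), with edgeR adjusted p from 0.353 to 0.746. GFPT1 was at 64.8 to 66.7 CPM with TMG and 65.4 to 76.8 CPM with DMSO. With the GC trend removed GFPT1 was at -0.16 (SE 0.05, edgeR adjusted p = 0.0261), where 12.5% of genes were called, and no other member passed.

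The difference between the drugs at 6 h was tested as an interaction over 11 libraries. GFPT1 differed, with an OSMI-2 effect 1.0 above the TMG effect on the log2 scale (SE 0.29, edgeR adjusted p = 0.0291). It was the only member of 6 to pass, against 19.9% of 12563 genes, and the median of all genes was 0.36 in the same contrast. The joint fit uses a single spread estimate per gene for both experiments. Its SE for GFPT1 was below that of the OSMI-2 effect alone (0.33, edgeR adjusted p = 0.172). The p-value of the difference may therefore understate the spread between OSMI-2 libraries. GFPT2 was at -0.54 (SE 0.23, edgeR adjusted p = 0.11), UAP1 at 0.70 (0.144), NAGK at 0.52 (0.125), GNPNAT1 at 0.45 (0.28) and PGM3 at 0.06 (0.927), adjusted p in brackets. The call for GFPT1 was lost in 8 of the 11 fits that left out 1 library, with values from 0.82 to 1.71 and edgeR adjusted p up to 0.107. With the GC trend removed GFPT1 (0.78) and GFPT2 (-0.84) passed, where 31.7% of genes did. Without DMSO 6 h library a of the OSMI-2 experiment 5 members passed, all but GFPT2, but so did 75% of all genes. At 2 h no member and no gene passed for the same difference (0% of 12608 genes by edgeR, with 1025 at an unadjusted p under 0.05). No member passed by edgeR for the difference between the 6 h and 2 h effects of OSMI-2, where 0.111% of 12627 genes did, or of TMG, where 0.0242% of 12399 did. Without DMSO 6 h library a, GFPT1 (1.05, edgeR adjusted p = 0.029) and UAP1 (1.06, edgeR adjusted p = 0.0299) passed for OSMI-2, where 12.8% of genes did. With the GC trend removed GFPT2 passed (-0.75, edgeR adjusted p = 0.0347), where 10.6% of genes did.

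The controls themselves differed between times. In the OSMI-2 experiment UAP1 was lower in DMSO at 6 h than at 2 h by a log2 fold change of -0.95 (SE 0.29, n = 3 against 3, edgeR adjusted p = 0.0207), and GNPNAT1 by -0.84 (SE 0.28, edgeR adjusted p = 0.0347), where 18.5% of 12343 genes passed and the median of all genes was -0.25. Of the 6 fits that left out a library, 4 did not call UAP1 (values from -1.34 to -0.72) and 5 did not call GNPNAT1 (-1.06 to -0.66). Without DMSO 6 h library a GFPT1 (-0.81) and PGM3 (-0.72) passed as well, where 37.2% of genes did. GFPT2 was at 0.32 (SE 0.26, edgeR adjusted p = 0.391) in the same contrast, and at 0.53 with the GC trend removed (edgeR adjusted p = 0.022), where 36.8% of genes passed. In the TMG experiment GFPT2 fell from 2 h to 6 h of DMSO by 0.69 (SE 0.09, edgeR adjusted p = 1e-06) and PGM3 by 0.31 (SE 0.07, edgeR adjusted p = 0.00152) on the log2 scale, where 45.9% of 12294 genes passed. Neither call was lost in any fit without 1 library. Whether the 2 times were handled or sequenced together is not given in the sources used here, so time and handling cannot be told apart.

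The 2 detained introns lie in the gene of the committed step and in that of the last step. In the tables (hg19 per the submitters' processing notes) the GFPT2 intron is chr5:179763578-179765492, 1915 bases on the minus strand, and fills the whole intron between a 108-base and a 99-base exon of GENCODE v29. The UAP1 bin is chr1:162566109-162567581, 1473 bases on the plus strand, the last part of an intron that is 5009 bases long between a 51-base and a 67-base exon. The edges of these introns are shown, as read from GENCODE v29 transcripts (GRCh38): for GFPT2 the joined exons, capitals marking the downstream exon, and for UAP1 the last 30 intron bases, which an annotated retained-intron transcript holds, with the exon in capitals.
GFPT2 exons joined when the intron is removed (intron chr5:180336578-180338492, minus strand): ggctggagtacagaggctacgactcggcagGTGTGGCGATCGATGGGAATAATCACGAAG
UAP1 intron end and exon (chr1:162597762-162597821, plus strand): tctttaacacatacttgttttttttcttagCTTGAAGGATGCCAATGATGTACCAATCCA

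The UAP1 intron fell after 6 h of OSMI-2. It had 13 and 10 counts in OSMI-2 libraries a and b against 51, 40 and 41 counts in DMSO libraries a, b and c. Both treated libraries were below every DMSO library, although treated library b was the deepest of the 5. The log2 fold change was -2.05 (SE 0.46, n = 2 against 3, edgeR adjusted p = 1.99e-05). Relative to UAP1's own exons it was -2.51 (SE 0.37, limma adjusted p = 1.03e-10), with 0.539% to 1.12% of UAP1 counts in the intron in OSMI-2 libraries and 3.36% to 5.5% in DMSO libraries. In all 5 fits that left out 1 library the intron passed, with values from -2.58 to -1.57. The same fall is in the authors' deposited table, at a log2 fold change of -2.49 in bin usage with an adjusted p of 4.15e-07.

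The GFPT2 intron fell as well, from 47, 43 and 38 counts in DMSO libraries a, b and c to 7 and 25 counts in OSMI-2 libraries a and b. The groups did not overlap, but the 2 treated libraries differed from each other. Its log2 fold change was -1.64 (SE 0.43, edgeR adjusted p = 0.000311), and relative to the exons of GFPT2, which were lower too, -1.14 (SE 0.37, limma adjusted p = 0.00269). Without OSMI-2 library a the relative value was -0.50 (limma adjusted p = 0.297), and no other left-out library ended that call. In the authors' deposited table the GFPT2 intron did not pass, at -0.99 with an adjusted p of 0.12, where 80.5% of detained introns did.

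Such falls were general at this time and do not set the 2 introns apart: 86.3% of 4677 detained introns were called lower by edgeR (86.9% in either direction) and 89.1% of 4616 were called lower relative to their gene by limma (89.3% in either direction), with medians of -1.55 and -1.63. With libraries scaled to detained introns alone the UAP1 intron was at -0.59 (edgeR adjusted p = 0.338) and the GFPT2 intron at -0.16 (edgeR adjusted p = 0.811), both uncalled. The share of UAP1 counts in the intron at 6 h of OSMI-2 lay close to the shares at 2 h, which were 0.346% to 0.769% with DMSO and 0.602% to 0.809% with OSMI-2, so the DMSO libraries of 6 h stood apart. The TMG experiment did not show that rise in DMSO: the UAP1 share was 0.387% to 0.477% at 2 h and 0.343% to 0.81% at 6 h. For GFPT2 the DMSO shares were 0.855% to 1.25% at 2 h and 2.09% to 2.76% at 6 h in the OSMI-2 experiment, and 0.366% to 0.771% and 1.49% to 2.39% in the TMG experiment, higher at 6 h in both. The high DMSO libraries at 6 h were not particular to these 2 introns. Detained introns of all genes held 0.756% to 1.214% of bin counts in DMSO at 6 h of the OSMI-2 experiment. They held 0.239% to 0.276% in its DMSO at 2 h, and 0.286% and 0.328% with OSMI-2 at 6 h. In the TMG experiment the DMSO shares were 0.377% to 0.443% at 2 h and 0.462% to 0.669% at 6 h.

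TMG did not move either intron past the threshold. At 2 h the UAP1 intron had 24, 24 and 18 counts with TMG against 17, 23 and 21 with DMSO, at a log2 fold change of 0.16 (SE 0.27, edgeR adjusted p = 0.725). The GFPT2 intron had 17, 11 and 17 counts against 14, 13 and 6, at 0.49 (SE 0.35, edgeR adjusted p = 0.36). At 6 h UAP1 was at 0.29 (SE 0.31, edgeR adjusted p = 0.84) and GFPT2 at 0.54 (SE 0.32, edgeR adjusted p = 0.653). All 4 values are above 0, as were 84.5% of 4056 introns at 2 h and 71.2% of 4219 at 6 h, of which edgeR called 9.81% and 0.19%. Relative to their genes neither intron passed with TMG, where limma called 9.8% of 4031 introns at 2 h and 0.191% of 4181 at 6 h. After 2 h of OSMI-2 the GFPT2 intron had 9, 14 and 5 counts against 8, 10 and 10 with DMSO. Scaled to depth, the OSMI-2 libraries were all below the DMSO libraries, at a log2 fold change of -0.71 (SE 0.44, edgeR adjusted p = 1, with 0.129% of 3107 introns called). The UAP1 intron, at 11, 16 and 11 counts against 5, 10 and 8, was below the filter of the count test and was at 0.20 relative to its gene (SE 0.39, limma adjusted p = 0.99, with 0.0643% of 3111 introns called). With such counts the SE of these log2 fold changes was 0.27 to 0.44, and none of these values passed.

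**Figure D4:**
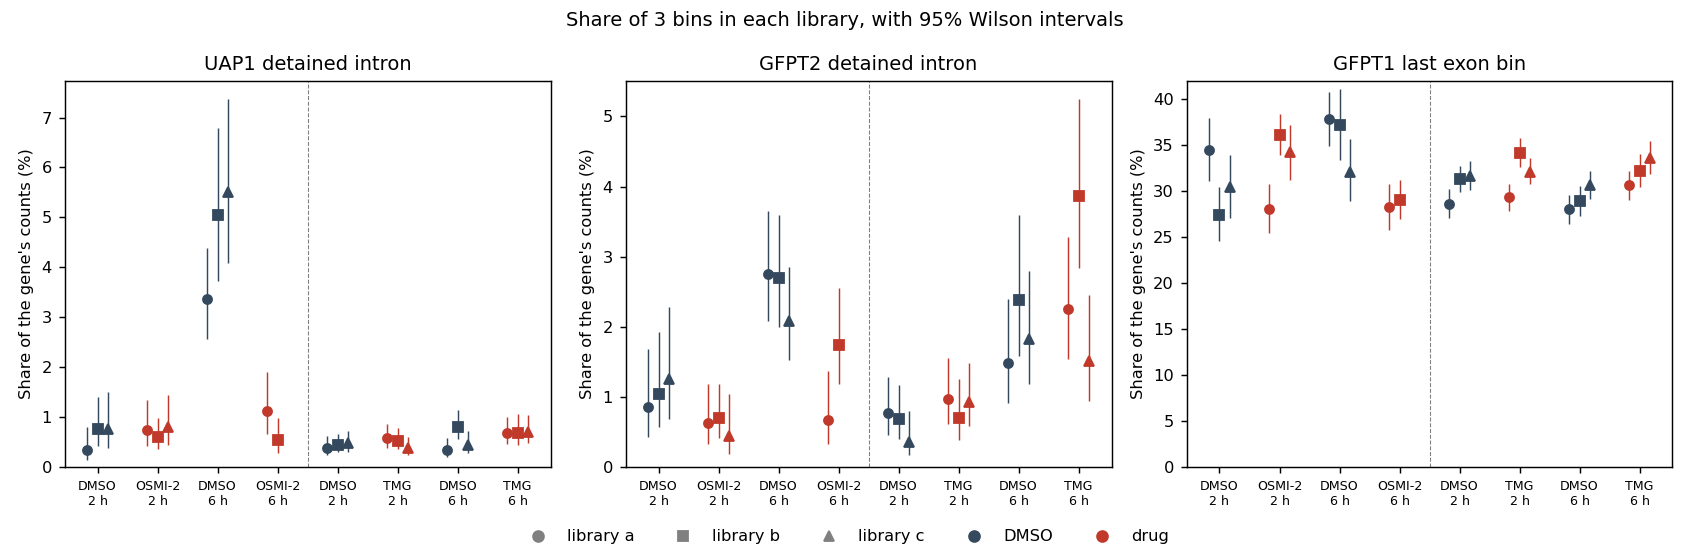
Share of the gene's counts (%, y axis, linear from 0) in the UAP1 detained intron, the GFPT2 detained intron and the last exon bin of GFPT1, in each library by group (x axis), with 95% Wilson intervals for counting error as bars. The 3 DMSO 6 h libraries of the OSMI-2 experiment stand above all other libraries for UAP1, at 3.36% to 5.5%; the GFPT1 bin at 6 h lies between 28.2% and 29% with OSMI-2 and between 32.1% and 37.8% with DMSO.

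Exon use within the genes changed little. Of the 87 exon bins of the members, 81 to 83 had enough counts for the test relative to the rest of the gene. With OSMI-2 at 6 h, 1 of 81 passed, where 2.34% of 125960 bins did, and in the other 3 comparisons none passed (0% at 2 h of OSMI-2, where 3718 bins had an unadjusted p under 0.05 by limma, 0.0196% at 2 h and 0.0148% at 6 h of TMG among all bins). The bin was the last exon of GFPT1 (chr2:69546910-69553365, 6456 bases), which holds the long 3′ untranslated region. It took 28.2% (346 of 1229 counts, 95% Wilson interval 25.7 to 30.7%, which covers counting error only) and 29% (507 of 1749) of GFPT1 counts in OSMI-2 libraries a and b, against 37.8% (408 of 1080), 37.2% (225 of 605) and 32.1% (235 of 731) in DMSO libraries a, b and c. The groups did not overlap, which was so for 22 of the members' 87 exon bins in this comparison (the share over all bins was not worked out). The bin was at -0.47 on the log2 ratio scale (SE 0.11, limma adjusted p = 0.0408), and the authors' deposited table also has it past 0.05, at -0.363 (adjusted p = 0.00499). The call was lost in 4 of the 5 fits without 1 library (-0.58 to -0.41), all but the one without DMSO library c, and the 2 h libraries of the same experiment ranged over 27.4% to 34.4% with DMSO and 28.0% to 36.1% with OSMI-2.

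The authors' deposited table has 1 further exon bin of a member past 0.05 at this time, the 105-base start of GFPT2 (chr5:179780211-179780315), at a log2 fold change of 0.815 in usage with an adjusted p of 0.014. It held 31 and 46 counts with OSMI-2 and 25, 31 and 34 with DMSO, or 2.98% to 3.27% against 1.51% to 1.99% of GFPT2 counts. Here it was at 0.81 (SE 0.23, limma adjusted p = 0.114), so the call was not made. The groups did not overlap, as for 22 of the members' 87 exon bins in this comparison, and the share over all bins was not worked out. Among all 147825 bins outside detained introns, 4.08% were past 0.05 in the authors' deposited table.

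UAP1 has a 51-base exon of 17 codons whose inclusion gives the longer of its AGX1 and AGX2 forms, which are known to differ in their preference for UDP-GalNAc and UDP-GlcNAc. It lies just upstream of the intron that holds the detained bin and is printed with the 30 bases of exon on each side (GENCODE v29, GRCh38), capitals marking the 51 bases.
UAP1 exon (chr1:162592732-162592782, plus strand): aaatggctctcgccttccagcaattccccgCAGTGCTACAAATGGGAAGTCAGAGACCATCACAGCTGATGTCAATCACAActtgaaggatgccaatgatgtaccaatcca
Its bin in the tables (chr1:162562522-162562572, 51 bases) was counted in every library, with 25 to 211 counts. The ratio of its count to that of the 67-base exon after it, present in both forms, was 0.403 to 0.671 over the 11 libraries of the OSMI-2 experiment (median 0.614) and 0.486 to 0.641 over the 12 of the TMG experiment (median 0.55). Counts per base also differed between other UAP1 bins, so the ratio does not give the share of either form. With TMG at 6 h the 3 libraries were at 0.486 to 0.502 and the DMSO libraries at 0.53 to 0.641, which did not overlap, but the bin did not pass relative to its gene in any comparison. By share of gene counts, 10 of the members' 87 exon bins did not overlap with TMG at 6 h. The share over all bins was not worked out, so this count sets no bin apart. Rarely used bins of other members stayed rare: a 39-base cassette exon of GNPNAT1 had 0 to 16 counts in a library. A 195-base bin at an alternative 3′ splice site of PGM3 had 0 to 7 counts.

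Genes next to the pathway were taken from lists of its suppliers and users, whose counts stand beside 4.94% of all genes called with OSMI-2 at 6 h, 7.91% with TMG at 2 h (824 lower and 154 higher) and 6.03% with TMG at 6 h. With OSMI-2 at 6 h none of 10 tested suppliers of glucose, glutamine and uridine nucleotides (HK1, GLUL, CAD and others), 8 genes of glucosamine removal and salvage, 4 genes of sialic acid synthesis and 4 stress regulators (XBP1, ATF4, ATF6, DDIT3) passed. Of 15 tested users of UDP-GlcNAc, 1 passed, OGT, which fell by 1.86 (SE 0.33, edgeR adjusted p = 0.000346) on the log2 scale. MGEA5, which removes O-GlcNAc, fell by 1.93 (SE 0.33, edgeR adjusted p = 0.000136), and without 1 library the values were -2.20 to -1.41 for OGT and -2.08 to -1.66 for MGEA5. The fits without either OSMI-2 library called no gene at all. With TMG at 2 h the glucose transporter SLC2A1 fell by 0.26 and the glutamine transporter SLC1A5 by 0.22, 2 of 10 suppliers, and HEXA fell by 0.30, 1 of 8 removal and salvage genes. Of 15 users 3 fell, among them EXT2 by 0.28 and MGAT1 by 0.21 (edgeR adjusted p from 0.00186 to 0.0239 over the 5 genes named). With TMG at 6 h 3 of 15 users fell, among them OGT by 0.48 and EXT2 by 0.21, MGEA5 rose by 0.72 (SE 0.06, edgeR adjusted p = 6.01e-06), and no supplier, removal, sialic acid or stress gene passed. With OSMI-2 at 2 h no gene of these lists passed.

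Across the 23 libraries, each set against the mean of its DMSO group, GFPT1, GNPNAT1, PGM3 and UAP1 varied together, with Pearson's r of 0.541 to 0.873 for the 6 pairs (0.487 to 0.874 without DMSO 6 h library a), whereas GFPT2 had r of -0.509 to 0.0235 with the other 5. These libraries share drug groups, depth and GC dependence, and the values are a description without a test. Among the genes with the most similar pattern of 11253 were SAMHD1 (r 0.971) and CALCOCO2 for GFPT1, ZWINT (0.942), NECAP1 and HNRNPC for GFPT2, and MAT2B (0.949), AKIRIN1 and UBE2B for GNPNAT1. For PGM3 they included ORC3 (0.970), PSMD14 and COPS2, for UAP1 PLS3 (0.977), BTBD10 and PRMT3, and for NAGK WDR83 (0.948) and TBC1D10A.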

How the data were processed

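RNA of HEK293T cells was sequenced from TruSeq Stranded mRNA libraries, and STAR and hg19 are named in the submitters' processing notes, with no version. The authors deposited read counts per bin (exon part or detained intron) for each library, without normalization. Per the file headers, the authors' tables also hold p-values, log2 fold changes of bin usage, a mean signal per bin over libraries, and usage scores, of which p-values and log2 values are quoted where named. A read can be counted in several bins (1.29 to 1.47 bin counts per read). Genes that the tables merge into one group (154 groups) were kept as 1 feature each; no member is among them.

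Gene and detained-intron counts were tested with edgeR 4.0.16 (quasi-likelihood, filterByExpr, TMM over genes and introns) in R 4.3.3. Bins relative to the rest of their gene were tested with limma 3.58.1 on log2 ratios with a pseudocount of 1 and a mean count of at least 10. P-values were adjusted by Benjamini-Hochberg over all features tested, at 0.05, and SE is the log2 fold change divided by the square root of F. Drug and time differences were interaction terms. DESeq2 1.42.0, other scalings and filters, a fit of all libraries and leaving out each library were alternatives. Removal of the GC trend was chosen after seeing the data. The scripts were tested on simulated data. The design assumed 3 libraries a group; OSMI-2 at 6 h had 2. Genes named are the 6 members, members' bins past the threshold here or in the authors' table, called genes of the lists, and the 3 genes most like each member, some of which are not reported here; rarely used bins were chosen after their values were seen. The members and lists were chosen with earlier results of these data known. The 22 replicate pairs within groups differed by more than sampling noise (chi-square over degrees of freedom from 4.33 to 304).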

Additional observations from a re-analysis of the deposited data

Results flagged for a closer look

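The 6 h effect on GFPT1 differed between the drugs by a test of the difference itself: the OSMI-2 effect was 1.0 above the TMG effect on the log2 scale (SE 0.29, edgeR adjusted p = 0.0291, 11 libraries), with both OSMI-2 libraries above all 3 of their DMSO libraries and TMG libraries overlapping theirs. The difference was 0.82 to 1.71 when each library was left out, and 8 of those 11 fits did not pass. The joint fit uses a single spread estimate per gene for both experiments, and its SE was below that of the OSMI-2 effect alone (0.33). The p-value may therefore understate the spread between OSMI-2 libraries. GFPT1 was 1 of 6 members to pass, where 19.9% of 12563 genes did and the median of all genes was 0.36.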

How the results depend on the processing

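Depth and the number of libraries limit these results: the introns rest on 5 to 51 counts a library, and OSMI-2 at 6 h on 2 libraries. Of 1020 values of members under alternatives, 58 changed sign where neither fit passed (largest size 0.24), and 1 reversed: PGM3 with OSMI-2 at 6 h, at 0.55 without DMSO library a (range -0.30 to 0.55 over the fits without 1 library). No paired analysis was possible because the count columns carry letters and not the replicate numbers of the labels.

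The counts of features past the threshold moved as follows, and the cause was not tested. For genes with OSMI-2 at 2 h the count was 0, and 1 by DESeq2. For genes with OSMI-2 at 6 h it was 617, and 943 with median-of-ratios factors, 1184 by DESeq2, 5981 in a fit of all libraries and 2644 with the GC trend removed. For genes with TMG at 2 h it was 978, and 0 in the fit of all libraries and 561 with the GC trend removed. With TMG at 6 h it was 730, then 2 and 1512. With the GC trend removed, DMSO at 6 h against 2 h in the OSMI-2 experiment moved from 2289 to 4547, and the 6 h against 2 h effects from 14 to 1343 (OSMI-2) and from 3 to 14 (TMG). The difference between drugs at 6 h moved from 2500 to 3978 so, and to 5426 with median-of-ratios factors.

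Detained introns moved from 4 to 7 with a term for libraries of flatter or steeper GC slope (OSMI-2 at 2 h). Scaled to introns only they moved from 4063 to 770 (OSMI-2 at 6 h), 398 to 77 (TMG at 2 h) and 8 to 14 (TMG at 6 h). DESeq2 gave 168 and 4 for TMG at 2 h and 6 h, and the fit of all libraries 3 and 3. With a mean count of at least 50, introns relative to their gene moved from 2 to 1 (OSMI-2 at 2 h), 4124 to 1976 (OSMI-2 at 6 h) and 8 to 5 (TMG at 6 h), and exon bins from 2953 to 1814 (OSMI-2 at 6 h), 26 to 16 (TMG at 2 h) and 19 to 10 (TMG at 6 h).

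Leaving out 1 library in turn gave, for genes, 0 to 0 and 0 to 5268 with OSMI-2 at 2 h and 6 h, and 243 to 1212 and 89 to 1248 with TMG; the extremes with OSMI-2 at 6 h were without either treated library and without DMSO library a. Introns ranged over 2 to 7, 3367 to 4069, 60 to 562 and 6 to 332 in the same order, relative to their gene over 2 to 4, 3772 to 4130, 19 to 466 and 5 to 249, and exon bins over 0 to 5, 1309 to 2895, 17 to 137 and 18 to 34. DMSO at 6 h against 2 h ranged over 519 to 4589 and 4488 to 6806, the difference between drugs over 0 to 272 at 2 h and 22 to 9408 at 6 h, and that between times over 0 to 1608 (OSMI-2) and 1 to 69 (TMG).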
